A study of Mus musculus with 3 samples.

Results

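Erythroid entry and globin genes were examined in LKS cells, bone marrow cells of the mouse that lack lineage antigens (Lin) and carry Kit and Sca1, a gate that takes in haematopoietic stem cells and early progenitors. The set was a fixed list of 10 gene symbols among the 24982 in the data: 8 genes of early erythroid commitment (Car1, Car2, Epor, Ermap, Aqp1, Klf1, Gata1 and Tfrc) and 2 globin genes (Hbb-bt and Hba-a1). RNA sequencing libraries were made from LKS cells of wild-type (WT) recipients (2 libraries) and of recipients lacking CD73 (CD73-/-, 1 library, here KO). CD73 is the cell-surface enzyme, encoded by Nt5e, that forms adenosine from extracellular AMP. Both groups are described as recipients, but what they received, whether donor or host cells were sorted, and the strain, age and number of the mice are not stated in the labels. Nothing states that the WT libraries came from separate animals, so the spread between them may be technical.

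Red cells arise from multipotent progenitors through a step in which the transcription factors GATA1 and KLF1 replace the stem cell programme, the erythropoietin receptor comes to the surface, and transferrin receptor and heme synthesis are raised. Carbonic anhydrase genes are switched on early on this path, and globin genes are transcribed heavily only later, in erythroblasts, cells that carry lineage antigens and are meant to be left out by an LKS gate. Erythroblasts and reticulocytes hold so much globin RNA that it is read in sorted progenitors as a possible carry-over; its source was not tested here.

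Depth was low. The total of gene counts was 361638 for WT replicate 1, 324954 for WT replicate 2 and 264704 for KO. A gene at 0 may therefore stand at up to 3 counts, or 8.30, 9.23 and 11.3 CPM. CPM is the gene count scaled to the library's total of gene counts, and its 95% intervals are exact Poisson intervals that cover counting error only. Nt5e had 0 counts in all 3 libraries and could not check the KO label. Kit, the receptor of the gate, was at 517, 637 and 555 CPM in WT replicate 1, WT replicate 2 and KO. Ly6a, which encodes Sca1, was at 166, 58.5 and 136 CPM and so was lowest in WT replicate 2. All 13 listed stem cell gate markers had counts in some library, and 8 of the 12 tested were lower in KO than in both WT libraries (38.2% of all tested genes were), with 0 past the test.

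Of the 10 genes, 8 had a count in some library and 3 (Car2, Tfrc and Hbb-bt) had counts in all 3 libraries. Car1, Epor, Ermap and Aqp1 were higher in KO than in either WT library, Car2 and Tfrc were lower, and Hbb-bt was as high in WT replicate 1 as in KO. None of these differences passed the test across all genes. The regulators that define the erythroid path were at or near the floor, with Klf1 at 0 in every library and Gata1 at 2, 0 and 0 counts, so that the label of erythroid entry was not borne out by its transcription factors at this depth. Because each library is RNA from many cells, more cells of a type and more RNA per cell cannot be told apart.

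**Figure D1:**
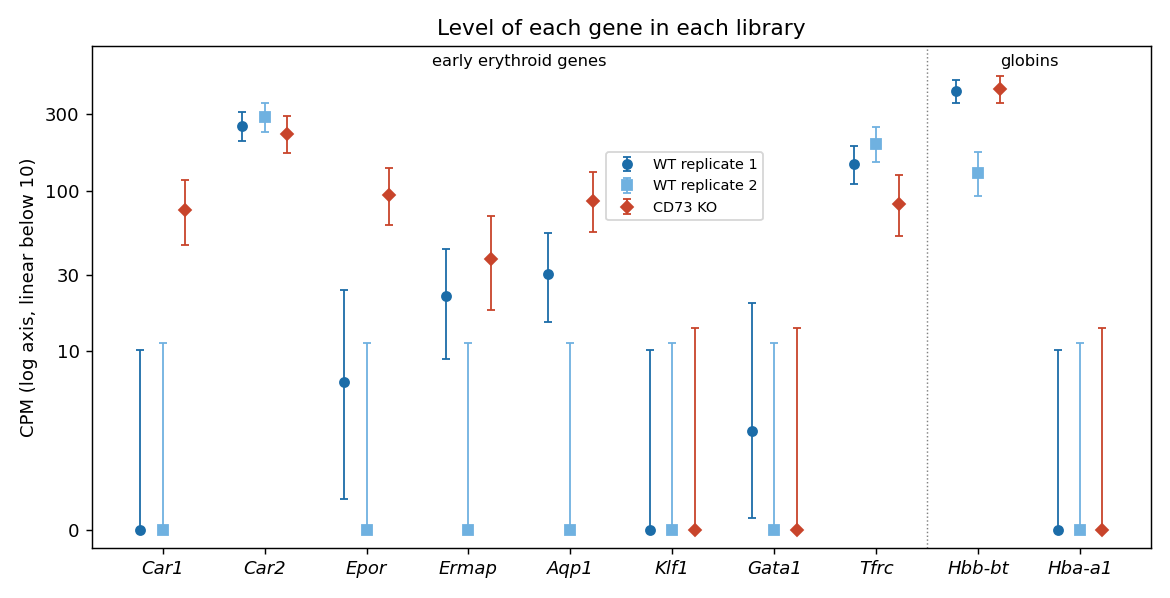
CPM of the 8 early erythroid genes and 2 globin genes (x axis) in the 3 libraries, on a log axis that is linear below 10; points are single libraries and bars are 95% exact Poisson intervals. Car1, Epor, Ermap and Aqp1 sit highest in KO and at 0 in WT replicate 2, whereas Hbb-bt is at 417.5 CPM in WT replicate 1 and 431 in KO.

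Car1 encodes carbonic anhydrase 1, a cytosolic enzyme that interconverts carbon dioxide and bicarbonate and is among the genes switched on early in erythroid progenitors. It lies on chromosome 3 (14766216 to 14808368, minus strand, mm10), close to its paralog Car2. Car1 was at 0 in WT replicate 1 and in WT replicate 2 and had 20 counts in KO, or 75.6 CPM (interval 46.2 to 117). With each WT library set at 3 counts it was at least 8.65-fold higher in KO, before the counting error of the KO value. Its unadjusted p was 0.0388 and its adjusted p was 0.461 (edgeR quasi-likelihood test, Benjamini-Hochberg adjustment). Of 50-base stretches of the longest Car1 transcript, 14.5% also occur in the annotated gene Gm5843, so part of its reads could be shared.

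Epor encodes the erythropoietin receptor, through which JAK2 and STAT5 sustain erythroid progenitors. It lies on chromosome 9 (21958897 to 21963506, minus strand). Epor had 3, 0 and 25 counts, in the same order of libraries, which is 8.30, 0 and 94.5 CPM. The KO interval, 61.1 to 139 CPM, did not overlap that of WT replicate 1, 1.71 to 24.2 CPM. The ratio of KO to the WT pair was 21.6, with a counting interval of 6.60 to 112, but the log2 fold change of 4.39 (SE 2.27) did not pass (edgeR adjusted p 0.508).

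Aqp1, the aquaporin 1 water channel of the red cell membrane, which endothelium also makes, lies on chromosome 6 (55336432 to 55348555, plus strand). It had 11, 0 and 23 counts, or 30.4, 0 and 86.9 CPM. KO was 2.86-fold above WT replicate 1, and their intervals (55.1 to 130 CPM and 15.2 to 54.4 CPM) did not overlap. The log2 fold change was 2.50 (SE 1.92, edgeR adjusted p 0.754). Of the other listed stroma and endothelium genes, Cdh5, Kdr and Emcn were at 0 in every library. Pecam1 had 52, 62 and 26 counts, lowest in KO, and Cxcl12 had 0, 0 and 8, with counts in KO as for Aqp1. Over the 11 listed stroma and endothelium genes, Aqp1 included, 3 had counts in some library and 8 were at 0 in all. Their summed level was 174 and 191 CPM in WT and 215 CPM in KO. That sum was highest in KO only through Aqp1 itself, as Pecam1, the largest other part, was at 144, 191 and 98.2 CPM. The part of such cells in the value of Aqp1 was not tested.

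Ermap, a membrane protein of the immunoglobulin superfamily named for its erythroid expression, lies on chromosome 4 (119175457 to 119190011, minus strand). Its counts were 8, 0 and 10, or 22.1, 0 and 37.8 CPM. The interval of WT replicate 1, 9.55 to 43.6 CPM, overlapped both that of KO (18.1 to 69.5 CPM) and that of WT replicate 2 (0 to 11.35 CPM), while the latter 2 did not overlap. The log2 fold change was 1.76 (SE 3.58, edgeR adjusted p 0.928).

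Epor, Ermap and Aqp1 all had 0 counts in WT replicate 2 and counts in both other libraries, although the 3 counts of Epor in WT replicate 1 are no more than a 0 allows. They differed in other respects. The interval of KO lay above that of WT replicate 1 for Epor and Aqp1 but not for Ermap. The interval of WT replicate 1 lay above that of WT replicate 2 for Aqp1 only. These intervals cover counting error only, and those of Aqp1 in KO and WT replicate 1 parted narrowly (55.1 against 54.4 CPM). How often intervals lay apart over all genes was not counted. Among all 6168 genes with at least 3 counts in WT replicate 1 and KO, 5.93% were at 0 in WT replicate 2. That share takes in genes of far higher counts, which are less likely to be at 0. Epor, Ermap and Aqp1 had only 3, 8 and 11 counts in WT replicate 1, and no share was taken over genes with like counts. The 3 genes were grouped after their values were seen.

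The 300 bases around the RefSeq start sites of these 3 genes are shown because all 3 were at 0 in WT replicate 2; RefSeq promoters (GRCm38.p6, the assembly of mm10, from 250 bases before to 50 after the start) were matched for 8 of the 10 genes, not for Car1 and Car2. Capitals mark 2 motifs searched on both strands: a GATA motif (AGATAA, its form AGATAG, and the forms TGATAA and also TGATAG that start with T) and a CACCC-type motif (CCNCNCCC), the kinds of site that GATA1 and KLF1 are known to bind. Epor is at chr9:21963527-21963826 (minus strand), Ermap at chr4:119189946-119190245 (minus strand) and Aqp1 at chr6:55336049-55336348 (plus strand).
Epor: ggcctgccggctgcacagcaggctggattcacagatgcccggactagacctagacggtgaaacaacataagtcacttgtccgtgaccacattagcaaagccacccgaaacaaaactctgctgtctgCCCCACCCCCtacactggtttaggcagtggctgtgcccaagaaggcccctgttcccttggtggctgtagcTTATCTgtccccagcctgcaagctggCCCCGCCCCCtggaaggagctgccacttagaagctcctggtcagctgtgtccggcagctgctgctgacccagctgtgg
Ermap: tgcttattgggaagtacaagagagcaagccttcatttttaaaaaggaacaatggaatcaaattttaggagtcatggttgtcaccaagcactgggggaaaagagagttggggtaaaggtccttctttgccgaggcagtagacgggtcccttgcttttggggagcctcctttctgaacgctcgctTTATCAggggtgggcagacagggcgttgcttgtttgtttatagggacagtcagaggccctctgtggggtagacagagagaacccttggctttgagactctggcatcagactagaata
Aqp1: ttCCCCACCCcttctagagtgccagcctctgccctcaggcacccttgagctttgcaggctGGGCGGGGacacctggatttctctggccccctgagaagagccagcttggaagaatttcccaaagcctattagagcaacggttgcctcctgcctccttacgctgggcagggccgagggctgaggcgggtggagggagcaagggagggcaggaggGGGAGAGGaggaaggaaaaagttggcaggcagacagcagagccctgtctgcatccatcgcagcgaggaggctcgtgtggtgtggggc
Epor held 1 GATA match and 4 CACCC-type matches, which overlap in pairs. Ermap held 1 GATA match and no CACCC-type match, and Aqp1 held 3 CACCC-type matches and no GATA match. The 3 windows thus differed in motif content. A GATA match was present in 4 of the 8 matched genes (Epor, Ermap, Klf1 and Hba-a1) against 29.8% of all 32851 windows of that length, and a CACCC-type match in 5 of 8 against 49.5%. Klf1, which had 0 counts, was among the genes with a GATA match. Matches are descriptions of letters, not of bound sites.

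Car2, carbonic anhydrase 2, an abundant erythroid enzyme that stem and progenitor cells also express, lies on chromosome 3 (14886273 to 14900770, plus strand). It had 92, 94 and 60 counts, or 254, 289 and 227 CPM, and the intervals of all 3 libraries overlapped. WT stood at 272 ± 24.7 CPM (SD, n = 2). The log2 fold change was -0.22 (SE 0.86, edgeR adjusted p 0.963). Car2 was thus detected at like levels in all 3 libraries, those without a Car1 count included.

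Tfrc encodes transferrin receptor 1, which brings iron into dividing cells and is raised strongly in erythroblasts. It lies on chromosome 16 (32608920 to 32632794, plus strand). Its counts were 53, 64 and 22, or 147, 197 and 83.1 CPM, with WT at 172 ± 35.6 CPM (SD, n = 2). KO was lowest, and its interval of 52.1 to 126 CPM overlapped that of WT replicate 1 (110 to 192 CPM) but not that of WT replicate 2 (152 to 251 CPM). The ratio of KO to the WT pair was 0.488, with a counting interval of 0.294 to 0.774, and the difference did not pass (SE 1.17 on the log2 scale, edgeR adjusted p 0.842).

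Gata1, the transcription factor of erythroid, megakaryocyte and mast cell differentiation, lies on the X chromosome (7959260 to 7978071, minus strand) and had 2, 0 and 0 counts. A count of 0 in KO allows up to 11.3 CPM, so no difference was detectable. Klf1, the erythroid Kruppel-like factor that activates adult beta globin, lies on chromosome 8 and had 0 counts in all 3 libraries. Neither gene was abundant enough to be tested.

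Hbb-bt, an adult beta globin gene on chromosome 7 (103812524 to 103813996, minus strand), had 151, 42 and 114 counts, or 417.5, 129 and 431 CPM. WT replicate 1 and KO overlapped (354 to 490 and 355 to 517 CPM), and WT replicate 2 lay below both (93.2 to 175 CPM). The WT pair thus differed 3.23-fold, while KO and WT replicate 1 differed 1.03-fold. With WT at 273 ± 204 CPM (SD, n = 2), the log2 fold change was 0.69 (SE 0.75, edgeR adjusted p 0.830). The deposited data also list Hbb-b2 with the same 3 counts as Hbb-bt, so both entries cannot be taken as separate measurements and 1 was used.

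Hba-a1, an adult alpha globin gene on chromosome 11 (32283511 to 32284465, plus strand), had 0 counts in every library, in both of its listed rows. Its copy Hba-a2 was also at 0, as was the beta globin Hbb-bs. Each globin has a near-identical partner, and reads that match both can be lost or be given to one of them, depending on the counting, which is not described in the sources used here. The coding sequences of Hbb-bt and Hbb-bs (444 bases, GENCODE M21) differ at 1 base, and those of Hba-a1 and Hba-a2 (429 bases) also at 1. The 60 coding bases around each difference are shown for this reason, from coding base 385 to 444 for the beta pair and 351 to 410 for the alpha pair, with the differing base in capitals.
Hbb-bt: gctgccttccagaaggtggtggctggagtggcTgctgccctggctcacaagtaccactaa
Hbb-bs: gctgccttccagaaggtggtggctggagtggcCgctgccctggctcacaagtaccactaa
Hba-a1: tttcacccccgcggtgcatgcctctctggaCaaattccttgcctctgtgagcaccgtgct
Hba-a2: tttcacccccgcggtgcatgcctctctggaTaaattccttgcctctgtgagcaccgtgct
Of all 50-base stretches of the longest coding transcript, 58.3% of those of Hbb-bt also occur in Hbb-bs and 67.5% of those of Hba-a1 in Hba-a2. In Hba-a2 the shared part was 86.9%. A listed 0 for Hba-a1 beside 151 counts of Hbb-bt therefore does not show that alpha globin RNA was absent, and the level of Hbb-bt may hold reads of Hbb-bs. For Car2, Epor, Aqp1, Klf1, Gata1 and Tfrc no 50-base stretch was shared with another gene, and no exon of the 10 genes overlapped another annotated gene.

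All 8 early genes together came to 604 CPM in KO against 477 ± 13.4 CPM (SD, n = 2) in WT, and the 2 globins to 431 against 273 ± 204 CPM. Both sums were highest in KO, and as sums the WT libraries lay far apart for the globins only. The early sum held parts that went opposite ways, split here after the values were seen. Car1, Epor, Ermap and Aqp1 came to 60.8, 0 and 295 CPM in WT replicate 1, WT replicate 2 and KO. Car2 and Tfrc came to 401, 486 and 310 CPM. The WT differences of these parts ran in opposite directions and partly cancelled in the early sum. The globin sum was Hbb-bt alone. WT replicate 2 had the lowest Hbb-bt and 0 counts for Epor, Ermap and Aqp1. With 2 libraries against 1, an exact permutation test of such a sum cannot give a two-sided p below 0.667, so no test was made.

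**Figure D2:**
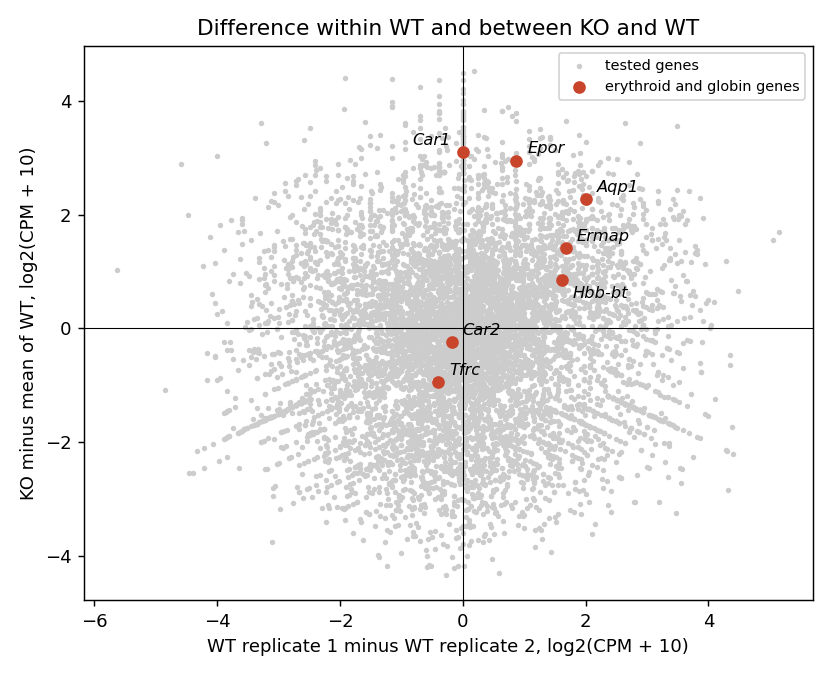
Difference between the WT libraries (x axis) against the difference of KO from the mean of WT (y axis), both in log2(CPM + 10), for all tested genes (grey) and the 7 tested genes of the set (red). Epor, Aqp1, Ermap and Hbb-bt lie right of 0, where WT replicate 1 exceeds WT replicate 2, and Car2 and Tfrc lie below 0 on the y axis.

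The WT libraries were at least 3-fold apart for 4 of the 7 tested genes of the set (Epor, Ermap, Aqp1 and Hbb-bt), against 39.4% of all tested genes. KO lay above both WT libraries for 5 of the 7 (31.1% of all tested genes did so) and below both for 2 (38.2%). Testing required 30.8 CPM in some library and also a minimum total count over the libraries. Car1, Epor, Ermap and Aqp1 reached 30.8 CPM in KO only, so their place among the higher genes was set by that filter. In the test across 7984 genes, 0 of the 7 passed an adjusted p of 0.05, where 0.100% of all tested genes did (8 higher, 0 lower). At an unadjusted p under 0.05 it was 1 of the 7 (Car1), where 282 of all tested genes were higher and 520 lower. DESeq2 also called 0 of the 7, but gave no adjusted p for 4 of them (Car1, Epor, Ermap and Aqp1).

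**Figure D3:**
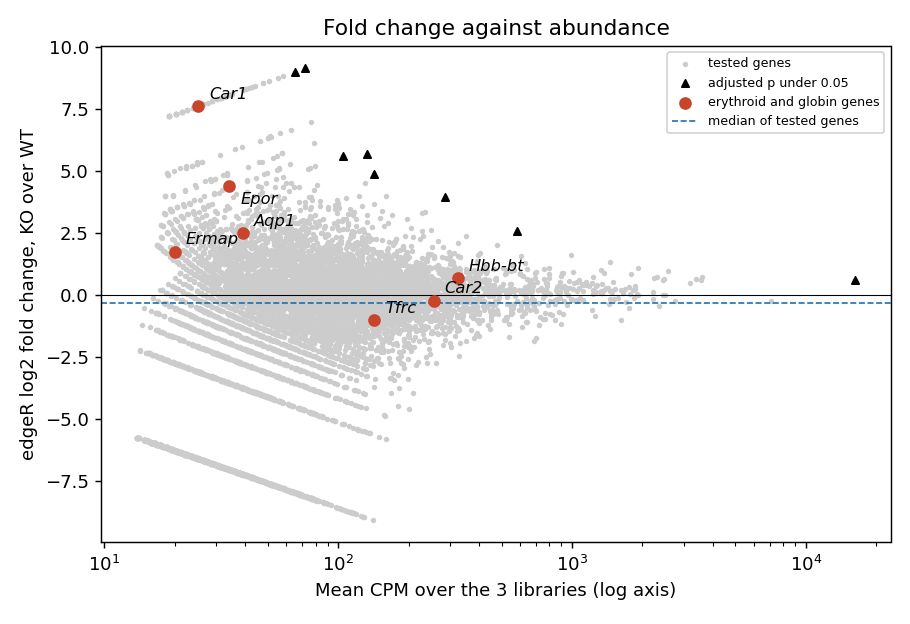
edgeR log2 fold change of KO over WT (y axis) against mean CPM (log x axis) for all tested genes (grey), the 8 genes past the adjusted threshold (black triangles) and the 7 tested genes of the set (red). Car1, at 0 in both WT libraries, has a fitted value that depends on the prior count and is no bound; none of the 7 lies among the black triangles.

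On a length-corrected scale the order of the genes also differed between libraries. The highest deposited FPKM (fragments scaled to transcript length and library size) in KO belonged to Hbb-bt (346), followed by Car2 (135), Epor (52.3), Car1 (40.7), Aqp1 (31.9), Tfrc (17.1) and Ermap (8.41). In WT replicate 1 the order was Hbb-bt (333), Car2 (150), Tfrc (22.7), Aqp1 (11.1), Ermap (4.885), Epor (4.56) and Gata1 (2.92). In WT replicate 2 Car2 (171) led Hbb-bt (103) and Tfrc (30.6), and the other 7 genes were at 0. Car2 was thus the most abundant early gene per length in all 3 libraries. Car1, Car2 and Tfrc have 2 listed rows each, and the row with the highest FPKM can differ between libraries and from that of the count. Neighbours such as Ermap and Epor in WT replicate 1 rested on 8 and 3 counts and cannot be ordered.

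Other genes of the erythroid path were read from lists that cover transcription factors, erythropoietin receptor signalling, heme synthesis, iron handling, the red cell membrane and late enzymes. Of 54 tested genes outside the set, 0 passed in either direction, 20 had a positive and 34 a negative log2 fold change, and the median was -0.32, beside -0.31 over all tested genes, of which 3441 were positive and 4543 negative. KO lay above both WT libraries for 13 of the 54 (31.1% of all tested genes) and below both for 21 (38.2% of all tested genes).

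Among the 16 tested transcription factors, 7 had a positive and 9 a negative log2 fold change (median -0.20). Lmo2, a bridging subunit of the complex that holds GATA factors and TAL1, was at 1007, 612 and 1005 CPM in WT replicate 1, WT replicate 2 and KO. Myb, which maintains progenitor proliferation, was at 503, 674 and 710 CPM. Gata2, the stem and progenitor GATA factor that GATA1 displaces, was at 337, 234 and 106 CPM (edgeR adjusted p 0.714), and it is named, like Tal1 (52, 4 and 24 counts), after its values were seen. Tal1 was, like Hbb-bt, lowest in WT replicate 2, but the listed factors went both ways. E2f4 (41, 1 and 14 counts) was also lowest there. Zfpm1 (57, 136 and 60), Gfi1b (5, 27 and 10) and Bcl11a (5, 42 and 5) were highest there.

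Of 10 tested erythropoietin receptor signalling genes, 0 passed the test, 1 had a positive log2 fold change and 9 a negative one (median -0.58), where negative values were also the more frequent over all tested genes. Stat5a, one of the 2 STAT5 genes, was the positive one, with 83, 29 and 106 counts. Jak2, the kinase bound to the receptor, had 30, 12 and 2 counts, and Pim1, a kinase gene induced by STAT5, had 210, 153 and 80. Socs3, a feedback inhibitor, was at 0 in all libraries, and Cish, another, had 4, 6 and 0 counts.

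Heme synthesis genes had a median of -1.06 over 10 tested, 4 positive and 6 negative, also with the 2 genes at 0 in KO set to their bound of 3 counts. Alas2, the erythroid form of the first enzyme of the pathway, had 1, 0 and 3 counts, at the floor, whereas the ubiquitous form Alas1 had 40, 86 and 54. Urod (83, 18 and 62 counts) was low in WT replicate 2, while Alad (26, 51 and 54 counts) was not. Fech, which inserts the iron, had 23, 17 and 1 counts. Iron handling genes had 3 positive and 6 negative members (median -0.37). The ferritin genes Fth1 (866, 616 and 559 CPM) and Ftl1 (642, 554 and 612 CPM) were far above the floor in all libraries. Tfr2, the second transferrin receptor, had 104, 66 and 33 counts and was, like Tfrc, lowest in KO.

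In the red cell membrane list 14 of 18 genes had counts in some library, but only 4 were abundant enough to be tested. Epb42 and Rhag were among the 4 at 0 in all libraries. Slc4a1, the band 3 anion exchanger, had 1, 0 and 11 counts, which is 41.6 CPM in KO. Among the tested, Epb41 (36, 11 and 39 counts) followed the profile of Hbb-bt, Icam4 (0, 18 and 38) was lowest in WT replicate 1, and Xk (79, 4 and 2) stood apart in WT replicate 1. The summed CPM of the list was 412, 194 and 442. Xk alone held 218.5, 12.3 and 7.56 CPM of these sums, so the excess of WT replicate 1 over WT replicate 2 rested largely on Xk. Of the late enzyme genes 7 of 9 had counts and 5 were tested. Among them, Bpgm, which makes the red cell's 2,3-bisphosphoglycerate, had 5, 12 and 52 counts (edgeR adjusted p 0.423) and Bnip3l, which clears mitochondria, had 63, 61 and 6 (adjusted p 0.441); Bpgm is named after its values were seen. The antioxidant genes Gpx1 (317, 397 and 203 counts) and Prdx2 (74, 114 and 52), which many cell types express, were lowest in KO.

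**Figure D4:**
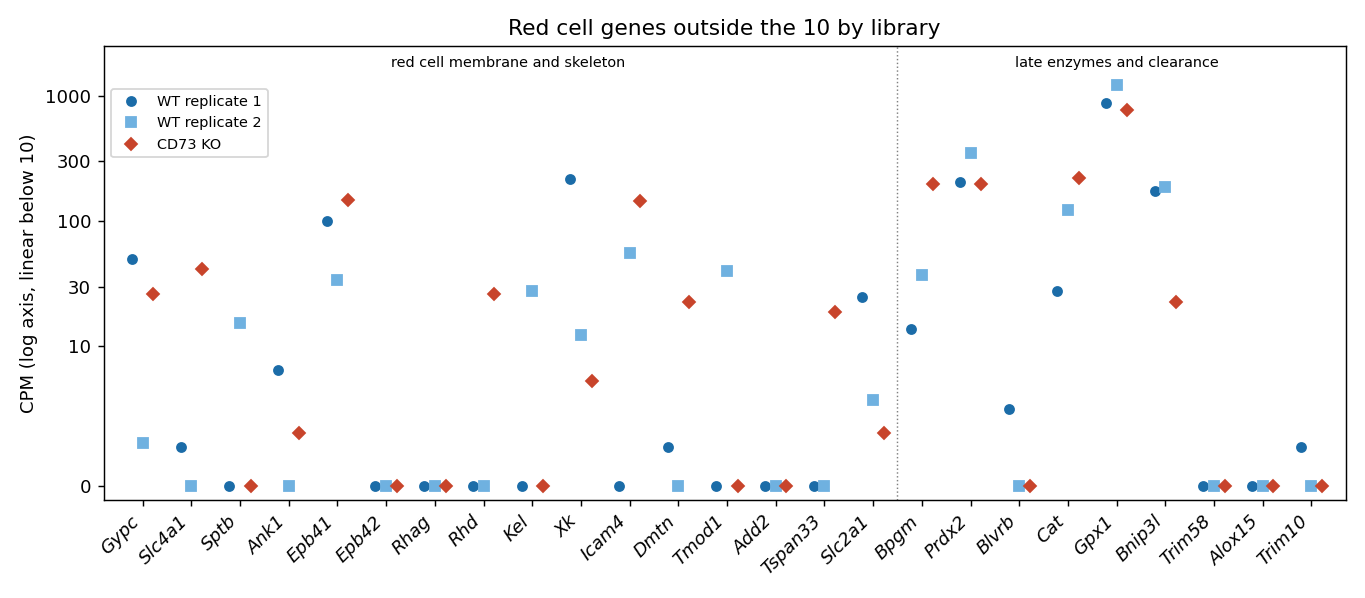
CPM of genes of the red cell membrane list and of the late enzyme list (x axis) in the 3 libraries, on a log axis that is linear below 10; points are single libraries. Epb42, Rhag, Add2, Trim58 and Alox15 are at 0 in every library, and genes high in KO (Slc4a1, Bpgm) stand beside genes low in KO (Bnip3l, Xk).

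Markers of other cells also differed between the libraries. All 13 listed neutrophil genes had counts in some library, as did 9 of 11 monocyte and macrophage genes (Cd14 and Fcgr1 were at 0) and 6 of 8 mast cell, basophil and eosinophil genes. The summed CPM of the neutrophil genes was 3556 and 4518 in WT and 5776 in KO, that of the monocyte and macrophage genes 196 and 622 in WT and 468 in KO, and that of the mast cell, basophil and eosinophil genes 141 and 43.1 in WT and 34.0 in KO. Within the neutrophil list, Mpo and Elane, granule enzyme genes that early myeloid progenitors also express, held 2118, 2705 and 4779 CPM. The other 11 genes summed to 1438, 1813 and 997 CPM, lowest in KO. Mpo and Elane were set apart after their values were seen. Prtn3, counted among those 11, was at 608, 665 and 620 CPM and held most of their KO sum. Of the 9 tested neutrophil genes KO was above both WT libraries for 2 and below both for 4 (S100a9, Lcn2, Ngp and Ltf). Over all tested genes these shares were 31.1% and 38.2%. The median log2 fold change of the 9 was -0.43. The part of these cells in the values of the erythroid genes was not tested.

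By shares of CPM over the 3 libraries, the genes most like Car1 among 2828 with at least 50 counts in some library were Prdm9 (0, 0 and 57 counts), Oplah (0, 0 and 52), Prss57 (0, 1 and 60), Ccdc14 (0, 2 and 61) and H2-DMb2 (3, 2 and 102). With 3 libraries this likeness says only that the counts lay in KO.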

How the data were processed

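LKS cells were sorted from bone marrow; their RNA was purified on RNeasy micro columns and turned into libraries with NEB kits, per the labels' protocols. The authors deposited whole-number counts per RefSeq transcript and FPKM values per transcript. STAR and mm10 are named in the submitters' processing notes, with no role or version; how reads were counted, by strand and with several matches, is not given in the sources used here. A library had 42574 rows for 24982 symbols. The gene count was the highest count over a symbol's rows, since a gene's transcripts repeat shared reads. Groups came from the sample titles.

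Genes were tested with edgeR 4.0.16 (R 4.3.3; filterByExpr, TMM, quasi-likelihood F-test, Benjamini-Hochberg over 7984 genes, threshold 0.05). With 1 residual degree of freedom the spread was pooled across genes, KO was taken to vary like WT, and the common biological coefficient of variation was 0.811. SE is the absolute log2 fold change over the square root of F. Ratios of KO to the WT pair carry exact binomial 95% intervals from pooled counts. Tested on simulated data, the edgeR test missed most of the smaller changes and most falls of any size, so a gene that did not pass may still differ. Changes were simulated only in genes above the median level of the tested genes, so the outcome for genes of lower level is not known.

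The 10 genes and all lists were chosen with earlier results of these data known. The named genes were the 10, up to 4 of the most abundant genes of a list, and defining late genes (Alas2, Slc4a1, Hbb-bs, Hba-a2; others are not reported here); Ahsp and Trac were not matched. Jak2, Socs3, Cish, Fech, Tfr2, Slc25a38, Tmem14c, E2f4, Zfpm1, Gfi1b and Bcl11a were chosen after their values were seen. So were the marker genes named singly, Epb42 and Rhag included. Alternatives were DESeq2 1.42.0, other scaling, filters and gene counts, and leaving out a WT library.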

Additional observations from a re-analysis of the deposited data

How the results depend on the processing

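In every fit that gives a test, 0 of the tested genes of the set passed: edgeR with library totals or upper-quartile factors, no filter, both stricter filters (3 of the set tested), mean counts over transcripts, and DESeq2, which gave no adjusted p for 4 of the 7. All 55 values of single genes kept their direction, and the lowest adjusted p over the alternatives was 0.476. For Car1, Epor, Ermap and Aqp1 the direction could hardly change. The alternatives refit the same libraries, in which KO lay above both WT libraries for these genes. The number of genes called over all genes was 8 with edgeR, 13 with DESeq2 (11 higher, 2 lower), 3 with upper-quartile factors, 4 without a filter, 1 with mean counts and 131 (27 higher, 104 lower) with at least 10 counts in every library or 50 in any. With the same filter and library totals over the kept genes, an alternative chosen after seeing the data, it was 0. The log2 ratio of the summed early genes was 0.34, 0.38 on TMM-scaled CPM and 0.52 on the highest FPKM per gene, and 0.31 to 0.37 with a WT library left out. That of the globins was 0.66, and 0.04 without WT replicate 2 to 1.74 without WT replicate 1, so WT replicate 2 decides it. The log2 fold change of Aqp1 was 1.53, that of Epor 3.48, that of Ermap 0.79 and that of Hbb-bt 0.07 without WT replicate 2. Leaving out a WT library leaves 1 against 1, a value with no test. No paired analysis was possible with 1 KO library, which also carries no replicate number. A gene at 0 may stand at up to 3 counts, and a single KO library gives no spread of its own.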

Other observations

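Nfe2, a transcription factor of the megakaryocyte and erythroid lineages, had the lowest adjusted p of the 54 erythroid genes tested outside the set, with 76 and 28 counts in the WT libraries and 201 in KO (log2 fold change 2.39, edgeR adjusted p 0.119); it was named after its values were seen. Megakaryocyte and platelet genes gave mixed values: of the 6 tested, 3 were positive and 3 negative (median log2 fold change 0.02), with 0 past the test. Itga2b, the integrin alpha IIb of megakaryocytes and some progenitors, was at 431, 391 and 740 CPM, and Pf4, platelet factor 4, had 2, 0 and 25 counts (adjusted p 0.467), a profile like that of Epor. Vwf (20, 57 and 28 counts) and Gp5 (12, 28 and 1) were highest in WT replicate 2, and Gp1bb, Ppbp and Treml1 were at 0 in every library.

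Counts of 0 were unevenly spread over the libraries. Taking for each library the genes that reached 3 counts in both others, the share at 0 was 4.97% for WT replicate 1, 5.93% for WT replicate 2 and 12.7% for KO, the smallest library. Slc25a38 (38, 15 and 0 counts) and Tmem14c (24, 14 and 0), both mitochondrial transporters of heme synthesis, were among the erythroid genes at 0 in KO, with adjusted p of 0.324 and 0.507 by edgeR.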
